A study of Mus musculus with 4 samples.

Results

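Tight junctions seal neighbouring epithelial cells at their apical edge, and 9 genes that encode parts of them were followed here through the mouse mammary epithelium. They were chosen by symbol as Cldn1, Cldn3, Cldn4, Cldn7, F11r, Tjp1, Ocln, Marveld2 and Cgn, which is 9 of the 27998 genes in the tables, and each of the 9 was found. The single-cell RNA-seq profiles came from female FVB/NJ mice without any treatment or transgene. Total epithelium was profiled at puberty (5 weeks of age) and in adults of 10 weeks in the estrus or the diestrus phase of the ovarian cycle. Cells were sorted as CD24+ after removal of blood and endothelial cells. Each adult library held the pooled glands of a pair of mice staged by vaginal cytology, and each of the 3 stages had 1 library.

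Claudins are membrane proteins that form the paired strands of the junction and set which ions and solutes pass between cells. Occludin (Ocln) and tricellulin (Marveld2) are MARVEL-domain proteins of the strands and of the corners where several cells meet, F11r encodes the adhesion molecule JAM-A, and ZO-1 (Tjp1) and cingulin (Cgn) form the cytoplasmic plaque that ties the strands to actin and myosin. In the mammary gland the luminal layer, made of luminal progenitor (LP) and mature luminal (ML) cells, faces the duct lumen and carries the tight junctions, whereas the contractile basal layer lies beneath it.

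Among the 9 genes (positions on build GRCm38, annotation GENCODE M21) there was a neighbouring pair on chromosome 5 and another on chromosome 13. Cldn4 (chr5:134945119-134946934, minus strand) and Cldn3 (chr5:134986214-134987472, plus strand) were 39279 bases apart. Ocln (chr13:100496507-100552718, minus strand) and Marveld2 (chr13:100595957-100616971, minus strand) were separated by 43238 bases. The other genes were Cldn1 (chr16:26356642-26371841, minus strand), Cldn7 (chr11:69964779-69967885, plus strand), F11r (chr1:171437535-171464603, plus strand), Tjp1 (chr7:65296165-65527781, minus strand) and Cgn (chr3:94760069-94786492, minus strand). An exon of Cldn3 overlaps Wbscr25 on the opposite strand, so its reads are separable only where strand was used in counting.

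The promoters of the claudins and of Ocln are shown, genes that moved together between the lineages described below, with Cldn1 as the exception. Marveld2 and Cgn moved with them but are not shown, nor are F11r and Tjp1. For Cldn7 and Ocln only the start site with an E-box is shown, so the choice favours windows that hold this motif. Each run is the 250 bases before a RefSeq start site (GRCm38.p6), read 5′ to 3′ on the gene's strand. Capitals mark the E-box CAGGTG or its reverse complement CACCTG, the letters bound by the SNAI and ZEB repressors.
Cldn1 (chr16:26371840-26372089, minus strand): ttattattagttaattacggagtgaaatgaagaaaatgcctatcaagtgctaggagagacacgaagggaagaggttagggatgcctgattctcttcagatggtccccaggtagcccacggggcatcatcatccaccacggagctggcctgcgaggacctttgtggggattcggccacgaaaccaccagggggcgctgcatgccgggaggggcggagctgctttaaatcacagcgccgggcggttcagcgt
Cldn3 (chr5:134985964-134986213, plus strand): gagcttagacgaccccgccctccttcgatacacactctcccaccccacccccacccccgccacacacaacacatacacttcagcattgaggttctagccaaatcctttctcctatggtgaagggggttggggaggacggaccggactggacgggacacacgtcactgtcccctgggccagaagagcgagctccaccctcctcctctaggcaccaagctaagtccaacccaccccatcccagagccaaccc
Cldn4 (chr5:134946935-134947184, minus strand): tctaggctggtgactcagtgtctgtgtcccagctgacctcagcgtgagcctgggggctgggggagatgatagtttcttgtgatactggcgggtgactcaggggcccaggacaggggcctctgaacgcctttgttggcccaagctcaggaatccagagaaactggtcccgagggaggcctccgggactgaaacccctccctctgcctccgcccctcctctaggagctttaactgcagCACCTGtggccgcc
Cldn7, second start site (chr11:69965171-69965420, plus strand): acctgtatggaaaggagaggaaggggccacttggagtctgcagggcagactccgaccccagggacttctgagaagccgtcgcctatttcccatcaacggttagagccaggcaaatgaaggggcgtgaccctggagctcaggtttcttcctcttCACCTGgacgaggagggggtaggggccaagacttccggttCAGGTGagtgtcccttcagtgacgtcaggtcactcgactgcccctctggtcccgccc
Ocln, second start site (chr13:100552499-100552748, minus strand): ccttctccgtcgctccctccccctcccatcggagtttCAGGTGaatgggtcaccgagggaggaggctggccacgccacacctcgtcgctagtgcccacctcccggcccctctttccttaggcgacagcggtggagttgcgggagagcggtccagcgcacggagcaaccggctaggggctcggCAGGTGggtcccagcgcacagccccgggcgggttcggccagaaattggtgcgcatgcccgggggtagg

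An E-box was present in the windows of Cldn4 (first base at -14 from the start site), of the second start site of Cldn7 (-97 and -57), of the second start site of Ocln (-213 and -68) and of F11r (-122). None was found in the windows of Cldn1, Cldn3, Tjp1, Marveld2 or Cgn, nor at the first start sites of Cldn7 and Ocln. Among all 32851 promoter windows of this length, 17.2% held the motif. The grainyhead motif AACCGGTT, which reads the same on both strands, was in 0.116% of the windows and in none of those of the 9 genes. A match here is a match of letters only.

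The tables held 25365324 counts in 5428 cell barcodes at puberty, 10962454 in 2729 at estrus and 11868593 in 2439 at diestrus, with medians of 4103, 3236 and 3974 counts per cell. A second puberty table shared 5387 barcodes with the first, with a correlation of 0.997 between the totals per cell, and was treated as the same cells sequenced again. Cells were placed into basal, LP and ML classes from signatures that held none of the 9 genes and none of the junction and regulator lists used below, which gave 1122, 1758 and 2167 cells at puberty, 1307, 472 and 784 at estrus and 1050, 567 and 682 at diestrus. The 8 basal markers summed to between 21058 and 31753 CPM (counts scaled to one common library total) in basal cells and to at most 145.5 CPM in LP and ML cells. The 8 LP markers summed to 19588 to 42858 CPM in LP cells and to 201.4 to 728.4 CPM in basal and ML cells. The 8 ML markers summed to 17198 to 24191.5 CPM in ML cells and to 316.6 to 1162.5 CPM in basal and LP cells. All 3 lists were used to place the cells, so their separation follows in part from the classes and is no independent check. The 5 immune markers summed to at most 2.11 CPM in basal, LP or ML cells. The fibroblast list summed to 250.1 to 705.8 CPM in ML cells, in which the level at diestrus came from Dcn with the other 4 markers at 0. It summed to 249.3 to 292.1 CPM in basal cells and to 3.28 to 4.36 CPM in LP cells. The erythroid list reached 541.8 CPM in ML cells at diestrus, with the beta-globin markers Hbb-bs and Hbb-bt at 0. The part of these transcripts in the results on basal and ML cells was not tested.

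Tight junction genes were compared between lineages to ask which epithelial layer holds which component. Of the 9 genes, 7 were higher in LP than in basal cells, 6 were higher in ML than in basal cells and 4 were higher in LP than in ML cells. None was lower in LP or ML than in basal cells, or in LP than in ML cells. The test was edgeR's quasi-likelihood F test on counts summed per lineage and library, with the library as a block and Benjamini-Hochberg adjustment over 11137 genes. A gene was called at an adjusted p-value under 0.01, and all 9 genes passed the filter on low counts. Among all genes tested, 16.2% were called higher and 16.9% lower in LP than in basal cells. The corresponding shares were 19.8% and 23.4% for ML against basal cells, and 15.4% and 12.9% for LP against ML cells. The median log2 fold change of the 9 genes was 5.47 for LP over basal cells, against 0.0029 over all genes tested. It was 5.21 for ML over basal cells (all genes, -0.039) and 0.48 for LP over ML cells (all genes, 0.037). The 7 genes called higher in LP than in basal cells are all in the luminal gene list that the study used. Members were also chosen with earlier results of these data known. The excess over all genes thus follows in part from the choice and is no independent result. Since the 3 libraries are also the 3 stages, a call means that the difference between lineages exceeded its own variation over the stages.

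**Figure D1:**
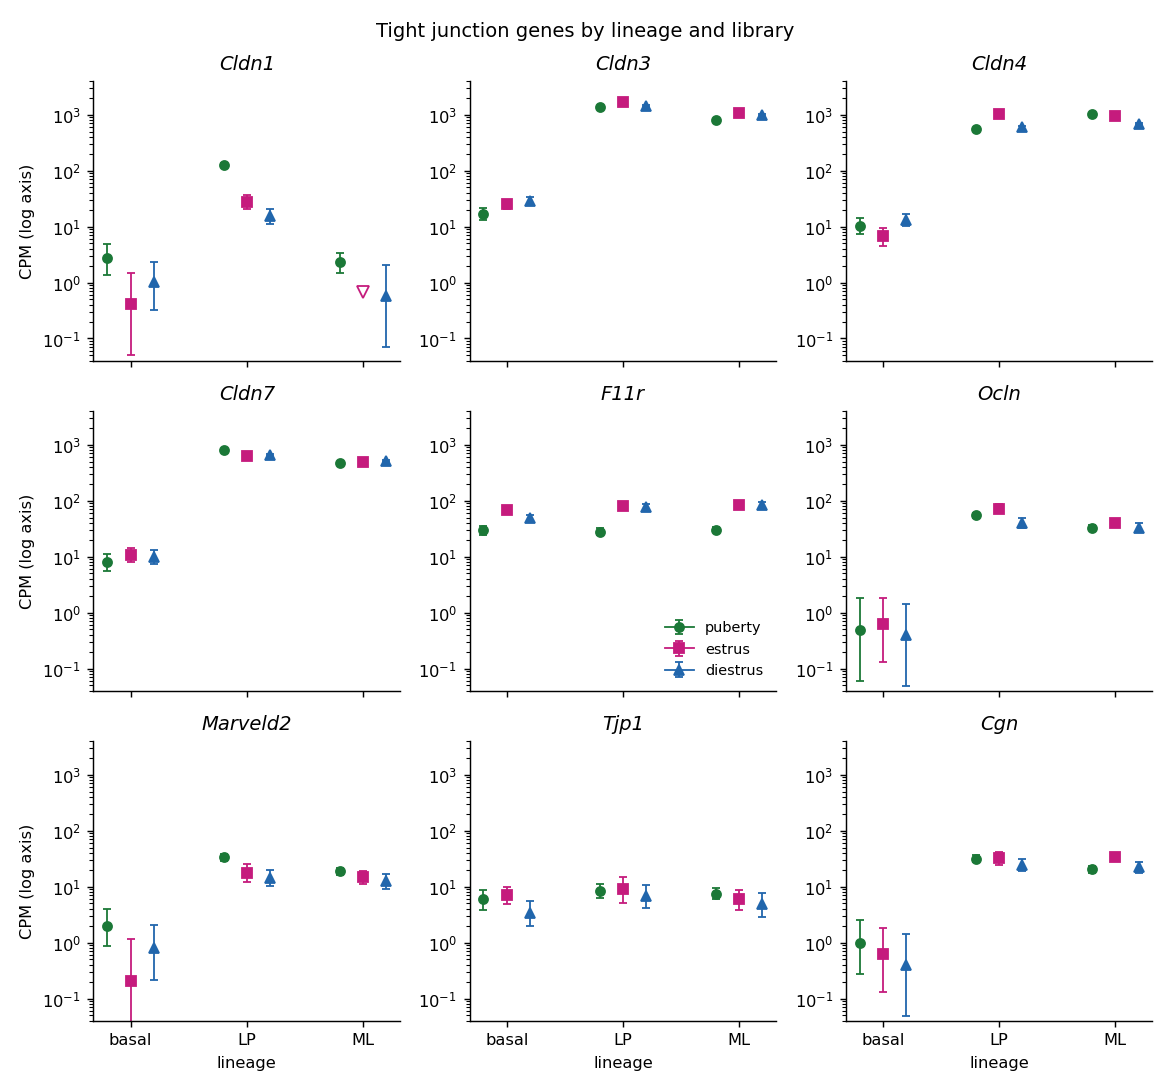
Level of each gene in CPM (scaled counts, log axis) in basal, LP and ML cells of the puberty, estrus and diestrus libraries. Bars are exact 95% Poisson intervals for counting error, and the open triangle marks a class with no count, drawn at the level of 3 counts. Cldn3, Cldn4, Cldn7, Ocln, Marveld2 and Cgn were higher in both luminal lineages than in basal cells, Cldn1 was high only among LP cells, and the ranges of F11r and Tjp1 overlapped between the 3 lineages.

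Cldn3, which encodes a sealing claudin of simple epithelia, was read at 1355 CPM in LP cells at puberty, 1673 at estrus and 1435 at diestrus. In ML cells it stood at 789.9, 1092 and 996.9 CPM, and in basal cells at 16.7, 25.2 and 28.9 CPM. Every LP library was thus above every ML library, and every ML library was far above the basal ones. Without TMM, the scaling of library sizes, LP at puberty (1068 CPM) was below ML at estrus (1280 CPM), so the luminal ranges then overlapped. Fitted log2 fold changes were 5.99 ± 0.15 (SE) for LP over basal cells (edgeR adjusted p = 1.02e-09) and 5.35 ± 0.15 for ML over basal cells (1.38e-09). The step from ML to LP was small, at 0.64 ± 0.12 (adjusted p = 0.00151).

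Cldn4, the neighbour of Cldn3 and known for reducing the passage of sodium, was present at 562.2, 1016 and 593.3 CPM in LP cells and at 1009, 935.3 and 669.0 CPM in ML cells, in the order puberty, estrus and diestrus. Basal cells had 10.4, 6.65 and 13.2 CPM. The luminal lineages overlapped in level, and both lay above basal cells by 6.11 ± 0.31 (LP, edgeR adjusted p = 8.01e-08) and 6.40 ± 0.32 (ML, 3.91e-08) on the log2 scale. LP and ML cells were not separated by the test (-0.29 ± 0.24, adjusted p = 0.362). LP was the lower lineage at puberty and at diestrus and the higher one at estrus, where the direction turned without TMM (975.5 CPM in LP and 1096 CPM in ML cells).

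Cldn7, whose product also lies on the lateral membrane, reached 793.1, 632.1 and 661.1 CPM in LP cells and 468.1, 492.6 and 519.1 CPM in ML cells. In basal cells it had 7.95, 10.8 and 10.0 CPM. The 3 lineages did not overlap. The log2 fold change was 6.17 ± 0.17 for LP over basal cells (edgeR adjusted p = 1.63e-09) and 5.67 ± 0.17 for ML over basal cells (1.51e-09), with a difference of 0.50 ± 0.13 between LP and ML cells (adjusted p = 0.0089).

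Cldn1, a claudin best known from the barrier of the skin, was the 1 gene of the 9 that was called higher in LP cells alone. LP cells held 126.9 CPM at puberty, 27.8 at estrus and 15.6 at diestrus. ML cells held 2.32 CPM, no count and 0.57 CPM in the same libraries, and basal cells held 2.73, 0.42 and 1.0 CPM. The lowest LP library was therefore above the highest library of either other lineage. LP cells exceeded basal cells by 5.24 ± 0.37 (edgeR adjusted p = 8.69e-07) and ML cells by 5.81 ± 0.37 (5.03e-07) on the log2 scale, and ML and basal cells were not separated (-0.57 ± 0.56, adjusted p = 0.417).

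F11r did not follow the claudins. Its levels at puberty, estrus and diestrus were 29.3, 67.6 and 49.7 CPM in basal cells, 28.0, 79.4 and 77.2 CPM in LP cells and 30.4, 83.0 and 84.7 CPM in ML cells. The ranges of the lineages overlapped, and the puberty library was the lowest in each lineage. ML cells were above basal cells in 3 of 3 libraries, with basal cells at 58.7% of the ML level at diestrus, but not at puberty without TMM (28.8 CPM in ML and 28.9 CPM in basal cells). No lineage contrast was called for F11r (LP over basal 0.27 ± 0.16, edgeR adjusted p = 0.181; ML over basal 0.38 ± 0.15, 0.0554; LP over ML -0.10 ± 0.15, 0.630). Over the alternatives the adjusted p-value of ML over basal cells ranged from 0.0117 to 0.519.

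Ocln and Marveld2, which encode the MARVEL proteins, were nearly limited to the luminal sums. Ocln had 54.8, 72.1 and 40.2 CPM in LP cells and 32.8, 39.3 and 32.7 CPM in ML cells, while the basal sums held 2, 3 and 2 counts, or at most 0.62 CPM. Its log2 fold change over basal cells was 6.69 ± 0.27 in LP (edgeR adjusted p = 1.42e-08) and 6.04 ± 0.27 in ML cells (2.16e-08), values that rest on those few basal counts. LP cells were above ML cells in 3 of 3 libraries (0.65 ± 0.15, adjusted p = 0.00543). Marveld2 had 33.3, 17.6 and 14.5 CPM in LP cells, 18.8, 14.6 and 12.6 CPM in ML cells and 1.99, 0.21 and 0.80 CPM in basal cells. It was 4.46 ± 0.37 (edgeR adjusted p = 2.91e-06) and 3.98 ± 0.37 (4.92e-06) higher on the log2 scale in LP and ML than in basal cells. LP and ML cells overlapped and were not separated for this gene (0.48 ± 0.25, adjusted p = 0.151), although LP was the higher in 3 of 3 libraries, of which estrus turned without TMM (16.9 CPM in LP and 17.1 CPM in ML cells).

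The cytoplasmic plaque was divided. Cgn, whose product binds ZO-1 and myosin, had 31.7, 32.3 and 24.3 CPM in LP cells, 20.5, 33.8 and 22.1 CPM in ML cells and 0.99, 0.62 and 0.40 CPM in basal cells. It exceeded basal cells by 5.47 ± 0.32 in LP (edgeR adjusted p = 2.09e-07) and by 5.21 ± 0.32 in ML cells (1.94e-07), without a call between LP and ML (0.26 ± 0.19, adjusted p = 0.312). Tjp1, which encodes the scaffold that claudins bind, was read in each lineage, with 5.97, 7.07 and 3.41 CPM in basal, 8.38, 9.08 and 6.89 CPM in LP and 7.5, 5.94 and 4.88 CPM in ML cells. LP cells were above basal cells in 3 of 3 libraries. No contrast of Tjp1 was called (LP over basal 0.57 ± 0.27, edgeR adjusted p = 0.115; ML over basal 0.19 ± 0.26, 0.575; LP over ML 0.38 ± 0.27, 0.278). All 9 sums of Tjp1 together held 284 counts, so small differences were not detectable at this depth.

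**Figure D2:**
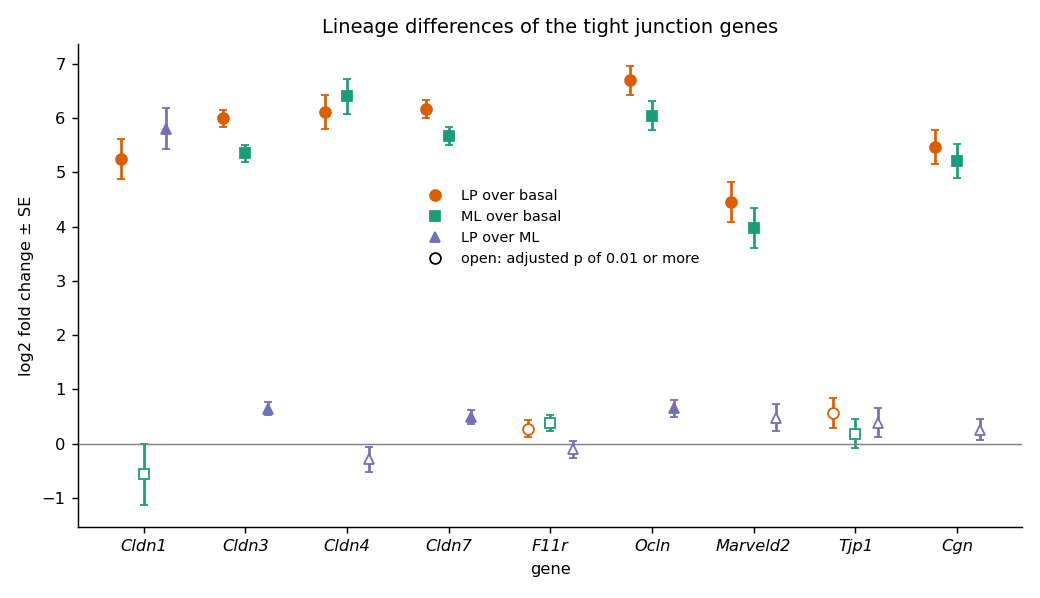
Fitted log2 fold change of each gene between lineages, with its standard error, over 3 libraries per lineage. Filled symbols were called at an adjusted p-value under 0.01. Cldn3, Cldn4, Cldn7, Ocln, Marveld2 and Cgn stood 3.98 or more above basal cells in both luminal lineages, Cldn1 did so in LP cells alone, and F11r and Tjp1 were within 0.57 of 0 in each contrast.

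The numbers of genes called higher in LP (7) and in ML (6) than in basal cells were the same in each of the 14 alternative settings tried. Those between LP and ML cells were less stable, since Cldn1 remained called in every setting, whereas Cldn7 lost its call in 11 of 14, Ocln in 9 of 14 and Cldn3 in 3 of 14. Leaving out the puberty library or the estrus library left 1 gene called higher in LP than in ML cells, and leaving out the diestrus library left 2.

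RNA released from broken cells gives counts in droplets of other cells, and 5 abundant LP transcripts (Csn3, Wfdc18, Lcn2, Trf and Plet1) were used to gauge it. Their summed level in basal cells was 3.34% of that in LP cells at puberty, 3.11% at estrus and 6.04% at diestrus, and in ML cells it was 1.31%, 1.45% and 2.15%. The basal sum was carried by Lcn2, at 17.2%, 19.8% and 36.4% of its LP level and detected in 87.3%, 84.9% and 91.5% of basal cells. The other 4 gauge genes in basal cells ranged from 0.489% to 3.04% of LP at puberty, from 0.223% to 0.619% at estrus and from 0.447% to 1.38% at diestrus. Beside these, the basal levels of Cldn3 were 1.23%, 1.5% and 2.01% of LP, those of Cldn4 1.86%, 0.655% and 2.23%, those of Cldn7 1.0%, 1.71% and 1.52% and those of Ocln 0.907%, 0.866% and 0.997%. At puberty all 4 genes lay within the range of the gauge genes other than Lcn2, at estrus all 4 lay above it, and at diestrus Ocln lay within it and the claudins above it. Because those gauge genes helped to place the cells, this is not a like comparison, and no conclusion is drawn from it. The part of released RNA in the basal counts was not tested. Marveld2 and Cgn in basal cells were at 5.96% and 3.14% of LP at puberty, 1.18% and 1.93% at estrus and 5.53% and 1.65% at diestrus, from at most 8 counts in a sum. Cldn1 in ML cells was at 1.83%, 0% and 3.68% of LP, from 25, 0 and 2 counts, which is above the summed gauge for ML cells at puberty and at diestrus. Plet1 alone was at 5.08%, 5.69% and 7.91% in ML cells and was detected in 57.2%, 57.0% and 51.6% of them. The other 4 gauge genes in ML cells ranged from 0.666% to 1.5% of LP at puberty and from 1.26% to 1.62% at diestrus. Cldn1 lay above these ranges but below Plet1. The part of released RNA in its ML counts was not tested. F11r and Tjp1 in basal cells were at 64.4% to 104.8% and 49.5% to 77.9% of LP, far above the summed gauge.

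Shares of cells with a count told the same genes apart. Because depth differed between classes, the share expected at 2000 counts per cell was also computed, leaving out shallower cells. Cldn3 was detected in 91.2% of 1758 LP cells at puberty, 96.6% of 472 at estrus and 97.2% of 567 at diestrus, or 80.8%, 93.0% and 91.8% at 2000 counts. In basal cells the share at 2000 counts was 2.78%, 4.79% and 4.57%. Cldn4 had shares of 44.0%, 62.4% and 54.5% in LP cells at 2000 counts, compared with 70.5%, 74.2% and 64.7% in ML cells. Its summed level was also the lower in LP cells at puberty and at diestrus, so evenness over cells is not read from these shares. No order is read from the estrus values, where the summed level was the higher in LP cells with TMM and in ML cells without it. A count of Cldn3, Cldn4 and Cldn7 in the same cell was seen in 45.4% of LP and 62.0% of ML cells at puberty, 53.8% and 72.4% at estrus and 58.0% and 68.5% at diestrus. The same was true of 2 of 1122, 1 of 1307 and 4 of 1050 basal cells. At 2000 counts the shares were 25.8% of LP and 29.4% of ML cells at puberty, 38.8% and 43.1% at estrus and 35.9% and 36.2% at diestrus.

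Counts of Cldn1 were found in a minority of LP cells, and at this depth a cell without a count may still express the gene. A count was present in 415 of 1758 LP cells at puberty (23.6%, exact binomial 95% interval 21.6 to 25.7), 36 of 472 at estrus (7.63%, 5.40 to 10.4) and 38 of 567 at diestrus (6.70%, 4.79 to 9.08). At 2000 counts per cell the shares were 14.9%, 4.49% and 2.89%. In ML cells a count was present in 19 of 2167, 0 of 784 and 2 of 682 cells, or 0.308%, 0% and 0.117% at 2000 counts. The median LP cell held 3726.5, 3182.5 and 4052 counts in the 3 libraries, so the puberty share was higher than the diestrus share in cells that were not deeper. Luminal cells between the LP and ML classes, 231, 112 and 92 in number, had Cldn1 counts in 16.0%, 2.68% and 8.70% of cells. These cells were deeper, with medians of 6235, 6051 and 6905.5 counts. At 2000 counts their shares were 6.52%, 1.12% and 2.45%, below those of LP cells in each library. Cells with both basal and luminal signatures, which can be doublets and were left out of the sums, numbered 95, 31 and 41, and 47, 19 and 24 of them had counts of the 3 other claudins together.

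**Figure D3:**
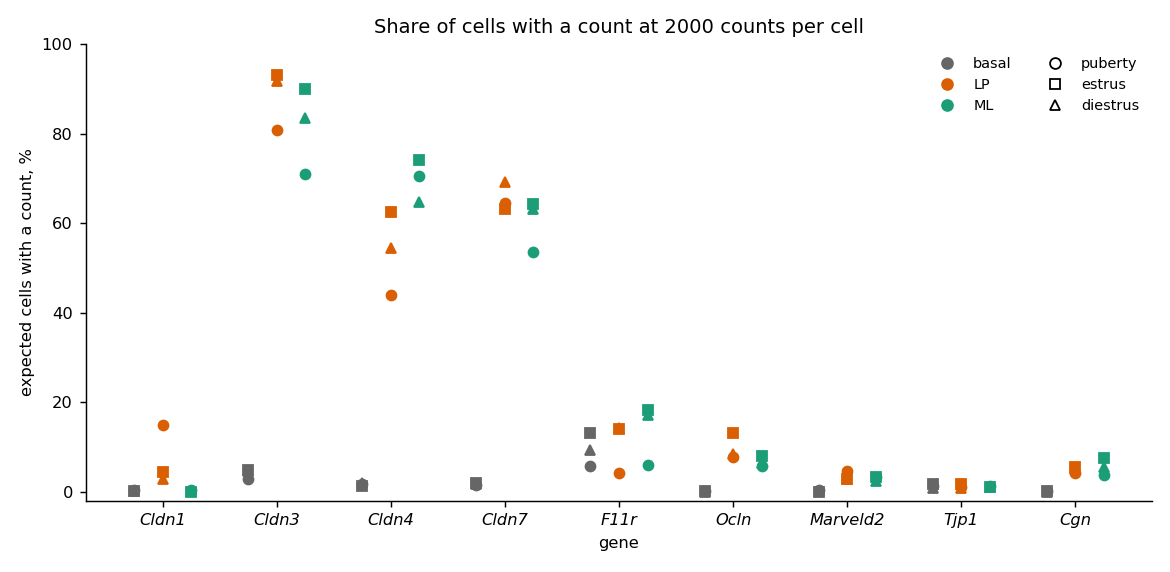
Percent of basal, LP and ML cells expected to hold a count of each gene at 2000 counts per cell, by library. Cldn3, Cldn4 and Cldn7 were found in 44.0% or more of cells in both luminal lineages and in under 5% of basal cells, and Cldn1 in up to 14.9% of LP cells.

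Over the 9 lineage sums the 6 genes high in both luminal lineages varied together, with Pearson correlations of log2(CPM + 1) from 0.944 to 0.997. These sums share libraries and 3 lineages, so the coefficients describe the lineage pattern. Cldn1 correlated with them at 0.366 to 0.565, F11r at -0.017 to 0.285 and Tjp1 at 0.441 to 0.550. Among 8106 genes with at least 300 counts, Marveld3, the third MARVEL gene of tight junctions, was the nearest to Ocln (0.998) and to Cldn3 (0.995) and the second nearest to Cldn7 (0.991). Among the genes nearest to Cldn4 were the nectin gene Pvrl4 (0.995) and the water channel gene Aqp5 (0.995). The genes nearest to Cldn7 were Bspry (0.995), Marveld3 and Tom1l1 (0.991), and those nearest to Cgn were Lyzl4 (0.993), Clcn3 (0.993) and Inhbb (0.992). Marveld2 was nearest to Atp1b1 (0.990), Rab17 (0.989) and Wwc1 (0.988). Slc1a1, Rps4x and 3110079O15Rik were nearest to Cldn1 (0.984 to 0.986), whereas no gene exceeded 0.941 for F11r or 0.952 for Tjp1.

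Of the 29 other claudin genes, 6 passed the filter on low counts. Beside this list and each later one stand the shares over all genes tested, 16.2% higher and 16.9% lower in LP than in basal cells. For ML against basal cells they were 19.8% and 23.4%. Cldn23, Cldn10, Cldn8 and Cldn6 were higher in both LP and ML than in basal cells, and Cldn12 was lower. Cldn10, which encodes a channel-forming claudin, was high in ML cells, with 484.4, 579.9 and 507.6 CPM against 55.1, 39.2 and 18.1 CPM in LP cells at puberty, estrus and diestrus (LP over ML -3.80 ± 0.32, edgeR adjusted p = 3.88e-06). Cldn6, known from embryonic epithelia, had 92.7, 68.8 and 109.1 CPM in ML and at most 3.62 CPM in LP cells (-5.22 ± 0.20, adjusted p = 1.84e-08). Both thus ran opposite to Cldn1 within the luminal layer. Cldn23 was higher in LP than in ML cells (1.43 ± 0.24, adjusted p = 0.000787), at 16.8, 18.2 and 16.7 CPM against 7.59, 7.31 and 4.02 CPM. Cldn8, with 28.8, 51.1 and 31.5 CPM in LP and 39.3, 88.2 and 61.7 CPM in ML cells, was not called between them (-0.73 ± 0.23, adjusted p = 0.0252). Cldn34c1, with 82 counts in all, was the sixth and was called in no contrast.

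The other membrane proteins of the junction were split between the layers. Of 8 genes, 7 were tested and 4 were higher in LP than in basal cells (Marveld3, Lsr, Ildr1 and Igsf5) while 2 were lower (Jam2 and Jam3). In ML cells the numbers were 3 and 2, with Ildr1 no longer called. The genes named outside the fixed rule, which took the 3 most abundant genes of each list, were picked after their values were seen. Lsr, the angulin gene that recruits tricellulin, rose from 93.3 ± 12.1 CPM (SD, n = 3 libraries) in basal to 189.7 ± 18.8 in LP and 249.2 ± 6.18 CPM in ML cells. Jam3, a paralogue of F11r, had no count in any LP or ML sum and 6.46, 6.24 and 2.41 CPM in basal cells. Cxadr, a related adhesion molecule gene, was not called in any contrast.

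Among the other scaffolds, 3 of 13 were higher in LP than in basal cells (Tjp3, Cgnl1 and Magi3) and 3 were lower (Magi1, Mpdz and Amotl1), with a median log2 fold change of -0.059. For ML over basal cells 2 were higher (Tjp3 and Cgnl1) and the same 3 were lower. Over all genes tested the shares were 16.2% and 16.9% for LP, and 19.8% and 23.4% for ML over basal cells. The scaffold counts were near these shares, so no pattern of the list is read from them. Tjp3 encodes ZO-3 and had 53.6, 70.9 and 64.2 CPM in LP, 22.7, 38.6 and 29.0 CPM in ML and at most 1.20 CPM in basal cells (LP over basal 6.56 ± 0.32, edgeR adjusted p = 5.39e-08). Of the 5 polarity genes, Crb3, Pard6b and Prkcz were higher in LP and in ML than in basal cells, and Pard3 was lower in ML cells (-0.90 ± 0.17, adjusted p = 0.000913). Crb3, of the apical Crumbs complex, had 5.22 to 6.02 CPM in basal, 111.3 to 192.9 CPM in LP and 105.7 to 205.0 CPM in ML cells.

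Other cell contacts held genes called in each direction. The shares over all genes tested were 16.2% higher and 16.9% lower in LP than in basal cells, and 19.8% and 23.4% in ML cells. Of 9 adherens junction genes, 6 were higher and 3 lower in LP than in basal cells, among them E-cadherin (Cdh1, 1.84 ± 0.16 higher) and P-cadherin (Cdh3, 7.35 ± 0.54 lower on the log2 scale). In ML cells 4 were higher and 3 lower, and none of the 9 was called between LP and ML cells. Of 8 desmosome genes tested of 9, 2 were higher and 4 lower in LP than in basal cells, and 2 were higher and 3 lower in ML cells. Perp, a desmosomal membrane protein gene, fell by 3.84 ± 0.15 from basal to LP cells (edgeR adjusted p = 1.32e-08), with 911.2, 762.1 and 699.6 CPM in basal against 67.9, 43.1 and 55.1 CPM in LP cells. Perp was the gene of this list with the most counts.

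Of 15 regulators of epithelial junctions, 12 were tested, and 7 were higher and 1 lower than in basal cells in both luminal lineages. The gene that was lower was Snai2, the E-box repressor, with 49.96, 32.2 and 28.5 CPM in basal cells and at most 0.57 CPM in LP or ML cells (LP over basal -6.32 ± 0.32, edgeR adjusted p = 7.66e-08). Grhl1 was higher by 3.0 ± 0.35 in LP and 3.03 ± 0.34 in ML cells, whereas Grhl2, a known activator of claudin genes, was not called (0.40 ± 0.20, adjusted p = 0.127, and 0.31 ± 0.19, adjusted p = 0.193). The ETS factor gene Ehf had 189.5, 205.4 and 188.8 CPM in LP, 15.3, 11.9 and 10.0 CPM in ML and at most 1.49 CPM in basal cells, and it was the 1 regulator called between LP and ML cells (3.95 ± 0.16, adjusted p = 2.24e-08). The membrane protease genes St14 and Prss8 and their inhibitor genes Spint1 and Spint2 were higher in both luminal lineages than in basal cells, by 1.02 to 3.52 on the log2 scale. Ovol1, Ovol2 and Snai1 were not called, and Grhl3, Zeb1 and Zeb2, with 14, 5 and 8 counts in all, did not pass the filter.

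**Figure D4:**
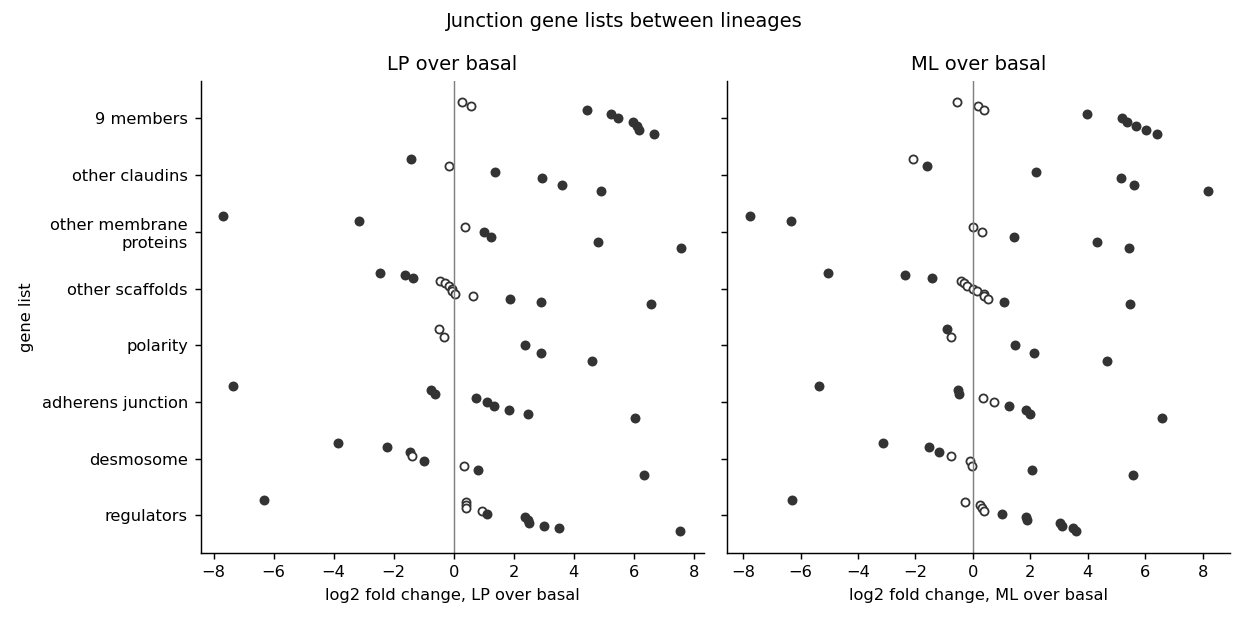
Log2 fold change of each tested gene of the 8 lists, LP over basal cells on the left and ML over basal cells on the right, one point per gene. Filled points were called at an adjusted p-value under 0.01. In LP over basal cells the 9 genes lay above 0 and each other list held points on both sides of it, whereas in ML over basal cells Cldn1 lay at -0.57.

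Stages were compared within lineages to ask whether the junction genes changed at puberty or over the cycle. Each stage was 1 library, so stage and library cannot be told apart and no test was run. Intervals are exact 95% intervals for counting error only, and a gene was counted when it was at least 2-fold apart, among genes with at least 100 counts over the sums compared. Between diestrus and estrus none of the junction genes reached 2-fold, with 3 of them assessed for basal cells, 6 for LP and 7 for ML. Of all genes assessed, 9.68%, 10.8% and 6.04% did. Between puberty and both adult libraries, Cldn1 was higher and F11r lower in LP cells, of 8 genes assessed, and F11r was lower in ML cells, of 8. In basal cells none of 4 reached 2-fold against both adult libraries. The shares over all genes were 2.33% in LP, 2.76% in ML and 3.52% in basal cells. The puberty ratios share 1 puberty library, and the ratios to estrus share 1 estrus library.

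Cldn1 had 757 counts in LP cells at puberty, 49 at estrus and 43 at diestrus. At puberty its level was 4.56-fold that at estrus (interval 3.42 to 6.22) and 8.14-fold that at diestrus (5.98 to 11.3). Both puberty tables gave a like value in LP cells, 126.9 and 124.1 CPM, but they are readings of the same cells and no replicate of the stage. The number of LP cells was larger at puberty, and the level was higher both in CPM and as a share of cells at equal depth.

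F11r was lower at puberty than in both adult libraries in each lineage. In LP cells its log2 ratio was -1.51 (interval -1.84 to -1.17) to estrus and -1.46 (-1.76 to -1.16) to diestrus. ML cells gave -1.45 (-1.67 to -1.23) and -1.48 (-1.71 to -1.25). Basal cells gave -1.20 (-1.52 to -0.90) and -0.76 (-1.09 to -0.44), the second of which was under 2-fold. Sequencing the puberty cells again gave a still lower level, 22.9 instead of 30.4 CPM in ML cells and 22.7 instead of 28.0 CPM in LP cells. The log2 ratio of the second to the first table in ML cells was -0.40 (-0.68 to -0.13), and the central 95% of all genes with at least 100 counts lay between -0.27 and 0.23. F11r thus differed between 2 readings of the same cells by more than most genes did, though by less than between puberty and the adults in LP and ML cells.

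Where they had at least 100 counts over the sums compared, the remaining genes moved by less than 2-fold against at least 1 adult library. Cldn4 in LP cells was highest at estrus, with log2 ratios of -0.85 (-0.94 to -0.77) for puberty and -0.78 (-0.87 to -0.68) for diestrus over estrus. In ML cells it was lowest at diestrus, at -0.48 (-0.56 to -0.41) to estrus, with puberty 0.59 (0.53 to 0.66) above diestrus. Marveld2 in LP cells was 0.92 (0.37 to 1.52) and 1.20 (0.71 to 1.73) higher at puberty than at estrus and diestrus. Ocln in LP cells was lower at diestrus than at estrus (-0.84, -1.22 to -0.46). Cgn in ML cells was lower at puberty (-0.72, -1.03 to -0.41) and at diestrus (-0.61, -1.03 to -0.21) than at estrus. Some of these steps crossed 2-fold without TMM. Cgn in ML cells then had 19.4 CPM at puberty and 39.6 at estrus, and Cldn4 in LP cells 443.1 and 975.5 CPM, both past 2-fold. Marveld2 in LP cells then had 26.3 CPM at puberty and 14.6 at diestrus, which is under 2-fold. Cldn3 and Cldn7 were the steadiest, with log2 ratios between -0.47 and 0.33 in both luminal lineages, although without TMM the ratio of puberty to estrus for Cldn3 was -0.59 in LP and -0.77 in ML cells. Cycling cells, which made up 4.66% to 16.4% of LP cells and 8.16% to 10.9% of ML cells, were the most frequent at diestrus, and leaving them out changed no count of genes at 2-fold.

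**Figure D5:**
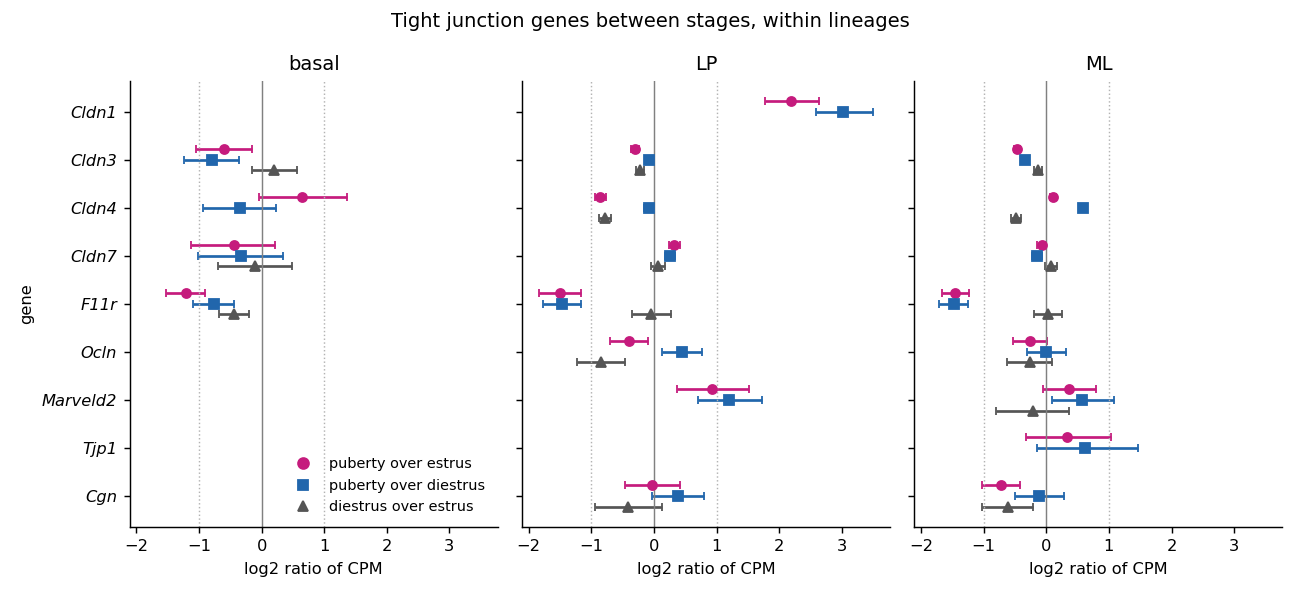
Log2 ratios of level between the libraries in basal, LP and ML cells for each gene with at least 100 counts, with exact 95% intervals for counting error. Dotted lines mark 2-fold. Cldn1 in LP cells lay above the line and F11r in LP and ML cells below it in both puberty comparisons.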

How the data were processed

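Female FVB/NJ mouse mammary epithelium was profiled by droplet single-cell RNA-seq (10x Genomics Chromium, 3′ ends), with 2 puberty tables and 1 each for estrus and diestrus. The deposited values are counts of molecules per gene and cell barcode, made by the authors with Cell Ranger 2.0 on mm10 and not normalized. They count transcript ends and were not divided by length, so levels are not compared between genes. No column of another series was present (0 unmatched).

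Cells with at least 3 of 5 immune, endothelial, fibroblast or erythroid markers and more counts of these than of keratins were set apart. The others were placed between seed cells by signatures of up to 100 genes per lineage without the members and the junction and regulator lists, and cells between the borders stayed out of the sums. No doublet caller was run. Counts were summed over 3 lineages and 3 libraries, with the first puberty table over the barcodes shared by both, and fitted with edgeR 4.0.16 in R 4.3.3 (TMM, filterByExpr, library block). CPM used TMM-scaled library sizes for basal, luminal progenitor and mature luminal sums. DESeq2 1.42.0 was an alternative. Marker sums used CPM without TMM. Stage ratios had exact conditional intervals and shares of cells exact binomial ones. These cover counting error only. On simulated counts (10716 genes), the fit called 50 of 50 genes changed 4-fold, 27 of 49 changed 2-fold and 12 of 50 changed 1.5-fold. It called 1 of 10518 unchanged ones. The simulation gave every gene the same dispersion, had no difference between stages and changed genes in LP cells only. These rates therefore do not carry over to the real sums, which vary over the stages.

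Named genes were the 9 members, the 3 most abundant genes of each wider list, other claudins with at least 100 counts, tested regulators, and the 3 genes most like each member. Members and lists were chosen with earlier results of these data known. Promoter sequences came from RefSeq on GRCm38.p6. Protein sequences were not used here. Some of the genes chosen by these rules are not reported here.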

Additional observations from a re-analysis of the deposited data

Results flagged for a closer look

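The 3 results below stood out because the ratio of puberty to an adult library had opposite signs in LP and ML cells, with intervals that excluded equality in each. The differences themselves were not tested, and with 1 library per stage they could not be. For Cldn4 the log2 ratio of puberty to estrus was 0.11 in ML and -0.85 in LP cells, a difference of 0.96. For Cldn7 the log2 ratio of puberty to estrus was 0.33 in LP and -0.07 in ML cells, a difference of 0.40. For Cldn7 the log2 ratio of puberty to diestrus was 0.26 in LP and -0.15 in ML cells, a difference of 0.41. The Cldn7 results share the puberty library. Without TMM scaling, the ratio of puberty to estrus became -0.20 for Cldn4 in ML cells, and for Cldn7 in LP cells it became 0.04, with -0.09 for puberty to diestrus.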

How the results depend on the processing

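The numbers of members higher in LP (7) and ML (6) than in basal cells were the same under every alternative. The number higher in LP than in ML cells was 4 and fell to 2 without TMM, with DESeq2, in seed cells alone and in cells passing stricter limits (1000 genes or more, mitochondrial share below 10%), to 1 without the library block, and to between 1 and 2 when a library was left out. Without TMM the log2 scaling of LP shifted by -0.19 against ML and basal cells as a mean over libraries, the fitted LP over basal value of Cldn1 became 4.99 (5.24), and puberty ratios shifted by up to -0.35. In seed cells alone 1 member, Cldn1, was lower in ML than in basal cells (-2.08, adjusted p = 0.00931). Cgn between LP and ML cells ranged from -0.0071 (without puberty) to 0.37 with a library left out, and Tjp1 between ML and basal cells was -0.039 without cycling cells, both reversed. Without the block, 2436 genes were called for LP over basal cells (3686 with it) and 1766 for LP over ML cells (3143), which ranged from 2058 to 2291 when a library was left out. For LP over ML cells, 9 genes of the wider lists were called without the block, 9 to 12 with a library left out and 31 at a threshold of 0.05 (16). With no low count filter, 3 members in basal and 1 in ML cells were 2-fold apart between diestrus and estrus, and 2 in basal and 2 in ML cells between puberty and both adults. In basal cells this last number was 1 in seed cells alone and 1 under the stricter limits. At 1000 counts per cell, 8.24%, 2.18% and 1.29% of LP cells held Cldn1 at puberty, estrus and diestrus. The causes of these changes were not tested. Between stages, no paired analysis was possible because each stage had 1 library. Lineages were paired within a library by the block. Depth limits Tjp1, Marveld2 and Cgn between stages, where sums held few counts.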
